A study of Drosophila melanogaster with 14 samples.

Results

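The binding sites of dCTCF at 3 h of 20-hydroxyecdysone were set against those at 48 h in Kc167 cells, a line from Drosophila melanogaster embryos. dCTCF is the fly counterpart of the vertebrate insulator protein CTCF. The sites are peaks of chromatin immunoprecipitation and sequencing (ChIP-seq): every peak of the 3 h and the 48 h dCTCF list that lies on chromosome arms X, 2L, 2R, 3L, 3R or 4. This gave 4085 peaks at 3 h and 3333 at 48 h, together 7418 of the 81028 peaks in the 12 lists of the series. Peaks on U, Uextra, sequences ending in Het and the mitochondrion were left out. Cells of both groups had received 5e-07 M 20-hydroxyecdysone in serum-free medium, and untreated cells (0 h) gave the earlier dCTCF list. CP190, Su(Hw) and BEAF-32 were mapped at the same 3 times. Each protein and time had 1 library, so no difference between times could be tested, and the values describe these libraries alone. The antibodies were raised in the submitting laboratory, per the labels.

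Insulator proteins bind scattered sites and take part in chromatin loops and in the borders between domains of active and silent genes. dCTCF recognises DNA through an array of zinc fingers. CP190 does not find most of its sites by itself: it joins insulator complexes through DNA-binding partners, among them dCTCF, Su(Hw), known from the gypsy insulator, and BEAF-32, known from boundary elements of the heat shock loci. 20-Hydroxyecdysone is the steroid that starts moulting and metamorphosis, and Kc cells respond to it by leaving the cell cycle and changing shape.

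A dCTCF peak was shared if 1 bp or more of it lay on a dCTCF peak of the other time. It was lost (3 h list) or gained (48 h list) if no dCTCF peak of the other time came within 1 kb. Peaks in between were near but neither. The score of a peak is the authors' value, deposited without a definition, and whether it means the same in each list is not known. The lowest class began at 100 and many peaks stood at a ceiling of 3100, which was treated as a tie. Shares are followed by 95% Wilson intervals, which cover counting error only. The depth of the libraries is unknown.

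The lists differed in make-up as well as in length. The median score was 396 at 3 h and 781 at 48 h. Peaks at the ceiling numbered 1026 (25.1%) at 3 h and 1144 (34.3%) at 48 h, so the 48 h list was shorter and held more of the highest scores. The narrowest arm peak was 205 bp wide at 3 h and 380 bp at 48 h. Of the 3 h peaks, 74.8% overlapped a dCTCF peak at 48 h, while 65.7% overlapped a 48 h CP190 peak, 59.0% a Su(Hw) peak and 57.7% a BEAF-32 peak.

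Most dCTCF sites of 3 h were still occupied at 48 h, and losses outnumbered gains. Of the 3 h peaks, 3054 were shared (74.8%, 73.4 to 76.1), 921 were lost (22.5%, 21.3 to 23.9) and 110 were near a 48 h peak. Of the 48 h peaks, 2980 were shared (89.4%, 88.3 to 90.4), 294 were gained (8.82%, 7.90 to 9.83) and 59 were near. With both arm lists cut by score to 3333 peaks, 450 were lost and 483 gained. Lists of equal length whose shared peaks mostly pair singly must give close counts, so this cut cannot say whether losses outnumber gains. Lost peaks were mostly far from any 48 h dCTCF peak: the median distance was 11607 bp, and 496 of the 921 lay more than 10 kb away. At the limit of the rule, the lost peak nearest to a 48 h peak was 1002 bp away (3R:10564767-10565257, score 124.72), and the farthest near peak was 989 bp away (2R:6045956-6046349, score 143.05).

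From 0 to 3 h, between lists of nearly equal length, 518 of 4003 dCTCF peaks (12.9%) were lost and 592 of 4085 (14.5%) gained. The 22.5% lost from 3 to 48 h was the larger share, but at equal list length it was 13.5% (12.4 to 14.7), with 14.5% (13.3 to 15.7) gained, close to the earlier step. In the same 3 h to 48 h step 13.5% of CP190, 9.22% of Su(Hw) and 5.61% of BEAF-32 arm peaks had no peak of their own protein within 1 kb at 48 h. Since read depth is unknown, a loss of weak sites and a library that recovers weak sites less well cannot be told apart.

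The sites that went late were the weak ones. Among 3 h peaks with a score from 100 to 200, 693 of 1237 were lost (56.0%, 53.2 to 58.8). From 200 to 400 it was 209 of 823 (25.4%, 22.5 to 28.5), and from 400 to 800 it was 18 of 466 (3.86%, 2.46 to 6.02). Of 533 peaks between 800 and the ceiling, 1 was lost. None of the 1026 peaks at the ceiling was, which allows a share of up to 0.292% (3 counts of the total). Gains were graded the same way, with 29.4% of 738 peaks from 100 to 200, 11.8% of 575 from 200 to 400 and none of 1144 at the ceiling. The median score of lost peaks was 148 and that of shared 3 h peaks 845.

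**Figure D1:**
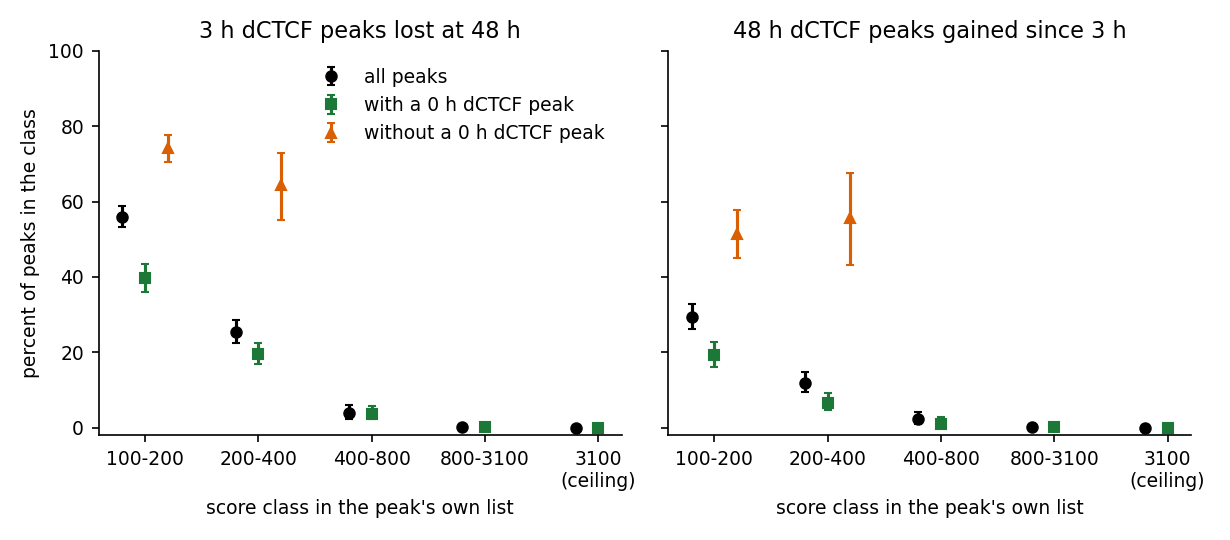
Share of dCTCF arm peaks lost between 3 and 48 h (left, of the 3 h list) and gained (right, of the 48 h list) against score class, for all peaks and for those with and without a dCTCF peak at 0 h; bars are 95% Wilson intervals and classes with fewer than 50 peaks are not drawn. Both shares drop to near 0 above a score of 800, and at scores under 400 peaks without a 0 h peak lie well above those with one.

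Whether a site had been bound before the hormone separated lost from shared peaks at equal score. Of the 921 lost peaks, 506 had no overlapping dCTCF peak at 0 h and 415 had one (45.1%, 41.9 to 48.3), against 95.9% of the shared 3 h peaks. Put the other way, 72.6% (69.2 to 75.8) of the 697 peaks absent at 0 h were lost by 48 h, and 12.2% (11.2 to 13.4) of the 3388 peaks present at 0 h. Within scores of 100 to 200 the shares were 74.1% (70.5 to 77.5) and 39.6% (35.9 to 43.4), and within 200 to 400 they were 64.5% (55.1 to 72.9) and 19.6% (16.8 to 22.6). Of the peaks absent at 0 h, 125 were shared between 3 and 48 h.

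For weak 3 h peaks with a 0 h peak, the earlier rank also differed. The percentile rank places a peak by score among the arm peaks of its own list, with 100 at the top. In the 100 to 200 class, peaks that were later shared had a median rank of 30.2 at 0 h and 19.7 at 3 h (366 peaks), and 78.1% of them ranked lower at 3 h than at 0 h. Peaks that were later lost had a median rank of 17.3 at 0 h and 15.3 at 3 h (257 peaks), and 57.2% ranked lower at 3 h. Among weak 3 h sites, those still present at 48 h thus had the higher rank before the hormone.

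Gained sites had a 0 h peak less often than the 48 h list as a whole. Of the 294 gained peaks, 136 (46.3%, 40.6 to 52.0) overlapped a 0 h dCTCF peak, so that they were listed before the hormone, missing at 3 h and listed again, and 158 did not. Among all 48 h peaks 3033 of 3333 (91.0%) overlapped a 0 h peak, and among the shared ones 96.4% (95.6 to 97.0). The median score of gained peaks was 147, close to that of the lost ones.

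CP190 was found again at most lost dCTCF sites that had it at 3 h, at a share near that of its whole list. Over all 3 h CP190 arm peaks, 84.6% (83.7 to 85.5) overlapped a 48 h CP190 peak. Of the 921 lost dCTCF peaks, 544 overlapped a CP190 peak at 3 h, and 475 of these overlapped a CP190 peak at 48 h as well (87.3%, 84.3 to 89.9). CP190 was absent at 48 h from the other 69 (12.7%), while 15.4% of all 3 h CP190 arm peaks had no overlapping CP190 peak at 48 h. At shared dCTCF peaks CP190 was kept at 2116 of 2229 sites (94.9%, 93.9 to 95.8). In all, 51.6% of lost peaks had CP190 at 3 and 48 h, 7.49% at 3 h only, 0.977% (9 peaks) at 48 h only and 368 peaks had it at neither time.

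CP190 itself scored lower at lost than at shared dCTCF sites. The median percentile rank of CP190 at 3 h was 56.0 at lost dCTCF peaks and 88.4 at shared ones. At sites where CP190 scored 400 or more at 3 h, it was kept at 98.1% (96.2 to 99.0) of 413 lost and 98.9% (98.4 to 99.3) of 2017 shared dCTCF peaks. Where it scored under 400, it was kept at 53.4% (44.9 to 61.8) of 131 lost and 57.1% (50.3 to 63.6) of 212 shared peaks. The intervals overlapped on either side of 400, and this split was chosen after the values had been seen.

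Counting each CP190 peak once gave the same picture. There were 531 CP190 peaks at 3 h that lay only on lost dCTCF peaks, 2064 that lay only on shared ones and 3594 with no dCTCF peak at 3 h. Of these, 87.6% (84.5 to 90.1), 95.3% (94.2 to 96.1) and 77.9% (76.5 to 79.2) overlapped a CP190 peak at 48 h. With CP190 scores of 200 to 400 the shares were 67.6% (56.3 to 77.1), 79.1% (70.6 to 85.6) and 71.3% (68.1 to 74.2), and with 400 to 800 they were 94.6%, 95.1% and 93.4%. All CP190 peaks at the ceiling were found again: 94, 1085 and 252 in the same order. For CP190 peaks between 800 and the ceiling that were kept, the median change in percentile rank was -8.70 points on lost dCTCF peaks, -7.06 on shared ones and -5.35 where dCTCF had no peak.

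**Figure D2:**
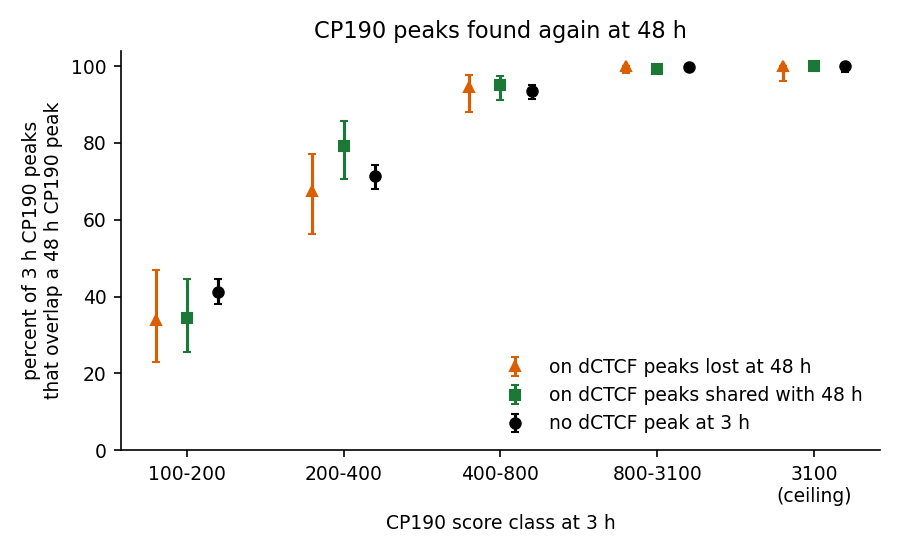
Share of 3 h CP190 arm peaks that overlap a 48 h CP190 peak, by CP190 score class at 3 h, for peaks lying only on lost dCTCF peaks, only on shared dCTCF peaks and on none; bars are 95% Wilson intervals. The share rises with the CP190 score at all 3 kinds of site, and their spread is widest from 200 to 400, at 67.6% on lost, 79.1% on shared and 71.3% on no dCTCF peak, where the intervals of lost and shared sites overlap.

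Su(Hw) and BEAF-32 were found again at most lost dCTCF sites, but no more often than over their whole lists. Su(Hw) was kept at 425 of 514 lost dCTCF peaks that had it at 3 h (82.7%, 79.2 to 85.7) and at 91.5% (90.2 to 92.7) of 1905 shared ones. Over all its 3 h arm peaks 86.8% (86.0 to 87.5) overlapped a 48 h Su(Hw) peak and 13.2% did not. BEAF-32 was kept at 522 of 563 lost peaks (92.7%, 90.3 to 94.6) and at 96.7% (95.8 to 97.5) of 1718 shared ones. Over all its 3 h arm peaks 92.7% (92.0 to 93.4) overlapped a 48 h BEAF-32 peak and 7.28% did not.

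In each partner score class under 800, Su(Hw) and BEAF-32 were kept less often on lost than on shared dCTCF peaks. For BEAF-32 the intervals overlapped. In the 100 to 200 class of the partner's own score, Su(Hw) was kept at 52.8% (44.6 to 60.8) of 142 lost and 67.9% (62.9 to 72.5) of 355 shared peaks. From 200 to 400 the Su(Hw) shares were 85.7% (77.8 to 91.1) and 91.9% (89.2 to 94.0), with overlapping intervals. From 400 to 800 they were 93.3% (86.2 to 96.9) of 90 and 98.8% (97.3 to 99.5) of 427, with intervals apart. In the 100 to 200 class BEAF-32 was kept at 54.7% (42.6 to 66.3) of 64 and 68.4% (60.1 to 75.7) of 133. CP190 was kept at 32.7% (21.8 to 45.9) of 55 and 31.6% (23.3 to 41.4) of 98 in that class, and at 68.4% (57.3 to 77.8) of 76 and 78.9% (70.6 to 85.4) of 114 from 200 to 400. Partners also appeared by 48 h where they had been absent at 3 h: Su(Hw) at 42 of 407 lost peaks (10.3%, 7.73 to 13.7), BEAF-32 at 34 of 358 (9.50%, 6.88 to 13.0) and CP190 at 9 of 377 (2.39%, 1.26 to 4.47). At shared peaks the shares were 12.5% (10.7 to 14.6), 5.16% (4.10 to 6.49) and 3.27% (2.26 to 4.72). Only for BEAF-32 did the intervals of lost and shared peaks stand apart.

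Weak dCTCF peaks without CP190 were lost more often than weak peaks with it. In the 100 to 200 class 49.9% (46.4 to 53.3) of 812 peaks with CP190 at 3 h were lost, and 67.8% (63.2 to 72.0) of 425 without it. From 200 to 400 the shares were 20.4% (17.5 to 23.8) of 626 and 41.1% (34.5 to 48.1) of 197. Among sites of the 100 to 200 class already bound at 0 h, 36.4% (32.4 to 40.6) with CP190 and 53.3% (44.5 to 61.9) without it were lost. Among those absent at 0 h, the shares were 74.7% (69.4 to 79.4) and 73.6% (68.4 to 78.2). From 200 to 400 they were 18.0% (15.1 to 21.3) and 26.5% (19.7 to 34.6) with a 0 h peak, and 54.8% (39.9 to 68.8) and 70.8% (58.8 to 80.4) without one. Over all scores the shares with and without CP190 were 12.3% and 12.2% where there was a 0 h peak, and 72.2% and 73.0% where there was none. No test of the difference between these groups was run.

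For BEAF-32 the order depended on the score. Over all 3 h peaks, 24.0% (22.3 to 25.7) of those with BEAF-32 and 20.6% (18.8 to 22.6) of those without it were lost. Within scores of 100 to 200 the order was turned round, with 51.8% (48.4 to 55.3) and 64.0% (59.3 to 68.4). In that class the shares were 35.5% (31.3 to 39.9) and 50.6% (43.3 to 57.8) among sites with a 0 h dCTCF peak. Among those absent at 0 h they were 74.5% (69.6 to 78.8) and 73.7% (67.9 to 78.8). For Su(Hw) the shares over all scores were 20.7% (19.2 to 22.4) with it and 25.3% (23.3 to 27.5) without. Within scores of 100 to 200 they were 53.1% (49.4 to 56.8) and 59.8% (55.6 to 63.9), with overlapping intervals. From 200 to 400 they were 23.8% (20.5 to 27.5) and 28.6% (23.6 to 34.3), again with overlapping intervals.

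The share lost differed between mixes of partners and did not follow their number. It was 14.8% (12.4 to 17.6) of the 722 dCTCF peaks with no partner at 3 h, 37.9% (33.9 to 42.1) of the 535 with 1, 30.7% (28.3 to 33.2) of the 1353 with 2 and 13.3% (11.7 to 15.1) of the 1475 with all 3. Among peaks with CP190 it was 19.4% (14.7 to 25.3) of the 211 with CP190 alone, 16.8% (14.0 to 20.2) of the 564 with CP190 and Su(Hw), and 36.1% (212 peaks) of the 588 with CP190 and BEAF-32. Among peaks with a partner but no CP190 it was 48.1% (41.9 to 54.4) of the 239 with Su(Hw) alone, 53.7% (46.8 to 60.5) of the 201 with Su(Hw) and BEAF-32, and 55.3% (44.7 to 65.4) of the 85 with BEAF-32 alone. The mixes with a partner but without CP190 thus had the highest shares, before any split by score. Peaks with no partner included 279 at the ceiling. Within the 100 to 200 class, 61.8% (53.0 to 69.9) of the 123 such peaks were lost, against 38.5% (33.5 to 43.8) of the 335 with all 3 partners.

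Sites bound before the hormone carried CP190 more often than sites absent at 0 h, among lost peaks as in the whole 3 h list. CP190 was present at 3 h on 308 of the 415 with a 0 h dCTCF peak (74.2%, 69.8 to 78.2) and on 236 of the 506 without one (46.6%, 42.3 to 51.0). Over all 3 h dCTCF peaks the shares were 74.1% (72.6 to 75.6) of 3388 and 46.9% (43.2 to 50.6) of 697. At lost peaks CP190 was kept to 48 h at 90.6% (86.8 to 93.4) of the former and 83.1% (77.7 to 87.3) of the latter, and at shared peaks at 95.1% (94.1 to 95.9) and 90.3% (80.5 to 95.5). Su(Hw) was on 56.4% (51.6 to 61.1) and 55.3% (51.0 to 59.6) of the lost peaks, with overlapping intervals. Scores of 200 or more were reached by 158 of the lost peaks with a 0 h peak and 70 of those without one.

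Gained dCTCF sites had CP190 at 3 h less often than shared ones did. CP190 was listed at 3 h under 182 of the 294 gained peaks (61.9%, 56.2 to 67.3) and under 72.7% (71.1 to 74.3) of the 2980 shared 48 h peaks. Of those 182, 118 had a dCTCF peak at 0 h. With a 48 h dCTCF score of 100 to 200, CP190 was listed at 3 h under 67.3% (60.8 to 73.2) of 217 gained peaks. Among 475 shared peaks of that class it was 72.8% (68.7 to 76.6), with overlapping intervals. From 200 to 400 the shares were 47.1% (35.7 to 58.8) of 68 gained and 79.9% (76.2 to 83.2) of 498 shared peaks. Of the 169 gained peaks with CP190 at 48 h, 167 had it at 3 h as well (98.8%, 95.8 to 99.7), and so had 98.8% (98.2 to 99.2) of the 2085 shared peaks with CP190 at 48 h. A further 110 gained peaks (37.4%) had CP190 at neither time, against 26.4% of the shared 48 h peaks. Su(Hw) had been present at 3 h under 125 of 143 gained peaks that had it at 48 h (87.4%, 81.0 to 91.9), against 92.5% (91.2 to 93.6) of 1859 shared ones. BEAF-32 had been present under 169 of 186 (90.9%, 85.9 to 94.2), against 96.1% (95.1 to 97.0) of 1683.

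Of the 10 lost peaks with the highest scores, 5 had a CP190 peak at all 3 times and 5 had none. The leading loss, 3R:19155834-19158466, was 2633 bp wide and scored 2230.85 at 0 h and 1920.92 at 3 h. The nearest 48 h dCTCF peak was 15218 bp away. CP190 there had 3100 at 0 h, 147.23 at 3 h and 1892.15 at 48 h, and Su(Hw) had a peak at all times. At X:3311939-3314687, also wide at 2749 bp, dCTCF scored 385.5 and then 779.72, while CP190 (2610.73, 3100 and 3041.89) and BEAF-32 (3100 at each time) stayed. At both of these sites the partners that were present at 3 h were present at 48 h.

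At others the 3 h score was already well below the 0 h score. At 3R:19364486-19365019 dCTCF scored 2746.51 at 0 h and 712.71 at 3 h, and CP190 scored 740.43, 1265.75 and 1676.24 over the 3 times. At 3R:3317217-3318017 dCTCF scored 2470.09 and then 554.92, with the nearest 48 h peak 144329 bp away, and CP190 scored 665.72, 1403.85 and 377.94. Here Su(Hw), present at 0 and 3 h, had no peak at 48 h, and BEAF-32 had one only at 3 h (score 234.15). At 3L:5757957-5758898, in contrast, dCTCF scored 513.38 and then 579.73, and CP190 (409.21, 733.9 and 602.1) stayed with BEAF-32 at the ceiling.

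The 5 highest-scoring losses without CP190 were varied. 2L:3407772-3408115 (score 288.28 at 0 h, 479.93 at 3 h) and 3R:8334505-8334969 (165.02, then 478.98) lay apart from CP190, Su(Hw) and BEAF-32 in all their lists. X:8699685-8700271 had a dCTCF peak only at 3 h (score 473.34) and lay on Su(Hw) and BEAF-32 peaks present throughout. X:9477523-9478100 went from 978.21 at 0 h to 464.98 at 3 h, and Su(Hw) had a peak there only at 48 h (score 400.09). 3R:15662285-15662876 (191.82, then 457.02) kept Su(Hw) and BEAF-32.

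At the 69 sites where dCTCF and CP190 went together, the median dCTCF score at 3 h was 144, close to the 150 of the 475 sites where CP190 stayed, and 79.7% (68.8 to 87.5) of the former and 73.7% (69.5 to 77.4) of the latter scored from 100 to 200 for dCTCF. The median CP190 score at 3 h was 179 where CP190 went and 1238 where it stayed. The site with the highest dCTCF score among the 69, 2R:13365151-13365841, scored 2845.09 at 0 h and 355.75 at 3 h for dCTCF, and 394.74 and 477.37 for CP190, with no Su(Hw) or BEAF-32 peak at any time. The next 4 of this kind had CP190 scores between 106.69 and 215.66 at 3 h. At 3 of them, 2L:10989195-10989592, 2R:7786793-7787170 and X:15227103-15227729, BEAF-32 was at the ceiling at all times. At 3R:19872711-19873538 a BEAF-32 peak was listed only at 48 h (score 2845.21).

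The strongest gain was 3R:12178360-12179458, with a dCTCF score of 271.84 at 0 h and 1173.28 at 48 h. Its distance to the nearest 3 h dCTCF peak was 1057 bp, just past the limit. CP190 followed the same course there, with 115.85 at 0 h, no peak at 3 h and 592.51 at 48 h. At 3R:537595-538189 (194.17 at 0 h, 754.24 at 48 h) CP190 and Su(Hw) were at the ceiling throughout. At 2R:7275620-7276555 dCTCF scored 364.29 at 0 h and 500.32 at 48 h, and CP190 scored 642.36, 1290.18 and 3100. The wide gain 3R:21223888-21226004 (2117 bp, score 728.69) and the gains 2L:21349866-21350863 and 3R:2159560-2160564 met no CP190, Su(Hw) or BEAF-32 peak in any list, and no 0 h dCTCF peak.

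**Figure D3:**
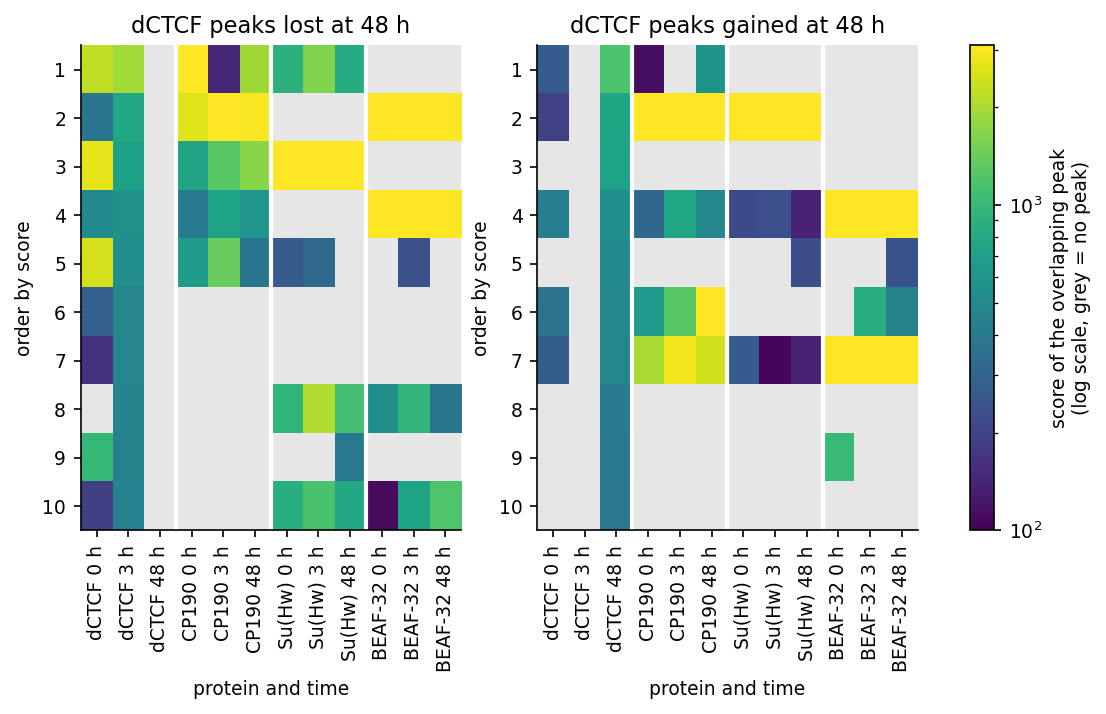
Scores of overlapping peaks in all 12 lists (columns, by protein and time) at the 10 highest-scoring lost dCTCF peaks (left) and the 10 highest-scoring gained ones (right), ordered by score from the top; colour is a log scale capped at 3100 and grey means no overlapping peak. In the upper 5 lost sites CP190 has a peak at all 3 times, whereas in the lower 5 it has none.

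Sites bound at both times kept their order by score. In 2887 pairs each peak had a single partner in the other list. Spearman's rho of the 3 h and 48 h scores was 0.93 over these pairs and 0.75 over the 1776 pairs below the ceiling at both times. The points share the same pair of libraries, so these are descriptions. Of the pairs, 983 were at the ceiling at both times, 121 at 48 h only and 7 at 3 h only. Within the lists, 82.3% of pairs ranked lower at 48 h. These include the 983 pairs at the ceiling at both times, as tied peaks there ranked 87.5 at 3 h and 82.9 at 48 h. That fall is set by the number of tied peaks and the length of each list, not by a change in score. Over all pairs the median score was 872 at 3 h and 1129 at 48 h. By score, 1089 pairs were higher at 48 h and 815 were lower, so a lower rank did not mean a lower score. Whether the score means the same in both lists is not known. Peaks from 100 to 200 made up 738 of 3333 in the 48 h list and 1237 of 4085 in the 3 h list. Ranked among the pairs alone, 154 stood more than 20 points higher at 48 h and 122 more than 20 points lower.

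The 5 pairs that ranked lowest at 48 h relative to 3 h were sites where other proteins still had a peak at 48 h, in part with lower scores. At X:12791193-12791577 the dCTCF score was 266.01 at 0 h, 596.76 at 3 h and 100.33 at 48 h, a change of -57.8 points of within-list rank, and CP190 there scored 827.29, 1532.83 and 519.68. At 3L:22093842-22094533 dCTCF scored 192.18, 519.33 and 101.41, and at 3R:27573870-27574464 it scored 347.19, 475.52 and 101.46, both with BEAF-32 at the ceiling throughout. At 3L:23212747-23213090 (215.36, 519.69 and 111.45) Su(Hw) was at the ceiling throughout, and at 3R:5609994-5610587 (226.13, 606.29 and 123.59) CP190 scored 2863.46 and then stood at the ceiling at 3 and 48 h. From 3 to 48 h CP190 fell from 477.89 to 319.39 at 3L:22093842-22094533 and from 1349.56 to 694.98 at 3R:27573870-27574464. At 3L:23212747-23213090 it rose from 1153.65 to 1216.22. In these 5 pairs dCTCF scored highest at 3 h. Picking the largest falls from 3 to 48 h favours pairs with a high 3 h score, so this order is not a result about the sites.

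In the 5 pairs that ranked highest at 48 h relative to 3 h, dCTCF scored lowest at 3 h. Picking the largest rises favours pairs with a low 3 h score, so this order too is not a result about the sites. At 3R:21473616-21474030 dCTCF scored 104.93, 100.11 and 993.58, a change of 53.3 points, and BEAF-32, absent at 0 h, scored 1032.62 and then 3100. At 2R:13323749-13324304 dCTCF scored 228.37, 131.77 and 1216.38, while CP190 scored 175.51, 307.18 and 2433.35, Su(Hw) 381.65, 1186.89 and 2383.9, and BEAF-32 had no peak at 0 h and then 381.49 and 1309.77. BEAF-32 was at the ceiling throughout at X:7827114-7827708 (dCTCF scores 785.66, 130.97 and 1088.05), 3R:13226948-13227379 (390.48, 104.51 and 615.38) and 2L:7827491-7828038 (426.86, 103.54 and 388.45).

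**Figure D4:**
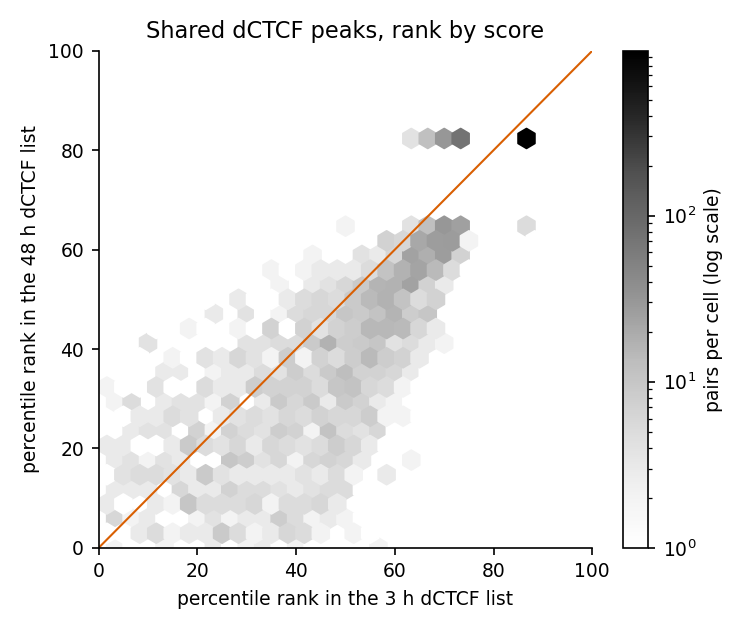
Percentile rank by score in the 3 h list (horizontal) and the 48 h list (vertical) of the 2887 pairs of shared dCTCF arm peaks; shading is the number of pairs per cell on a log scale and the line marks equal rank. Most cells lie below the line, and the dark cell is the 983 pairs at the ceiling at both times. That cell lies below the line because of the number of tied peaks and the length of each list. By score, 1089 of the pairs were higher at 48 h and 815 were lower.

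Lost peaks were narrow and 48 h peaks were wide. The median width was 452 bp for lost peaks (quartiles 387 and 523) and 604 bp for shared 3 h peaks (487 and 790.75). Width follows score, and within the 100 to 200 class the medians were 437 and 455 bp, within 200 to 400 they were 505 and 503 bp. Shared 48 h peaks had a median of 717 bp and gained ones 592 bp. In pairs, the 48 h peak was wider in 88.6% of cases, with a median ratio of 1.17 (quartiles 1.07 and 1.31), while the centres differed by a median of 28 bp.

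The width ratio was graded by score, and those of the other proteins were nearer to 1. The median ratio was 1.30 for pairs with a 3 h score of 100 to 200, 1.18 between 800 and the ceiling and 1.09 at the ceiling. From 0 to 3 h the median ratio was 1.01 for dCTCF, 1.12 for CP190, 0.99 for Su(Hw) and 1.05 for BEAF-32. In that step 81.8% of CP190 pairs were wider at 3 h, so a shift over most of a list was not particular to dCTCF. From 3 to 48 h the median ratio was 0.94 for CP190, 1.03 for Su(Hw) and 1.03 for BEAF-32. With 1 library each, whether the width belongs to the sites or to the library cannot be told apart. In all, 80 peaks of the 48 h list covered 2 or more 3 h peaks, and 10 peaks of the 3 h list covered 2 or more 48 h peaks. With every peak set to 500 bp about its centre, losses numbered 938 and gains 300.

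**Figure D5:**
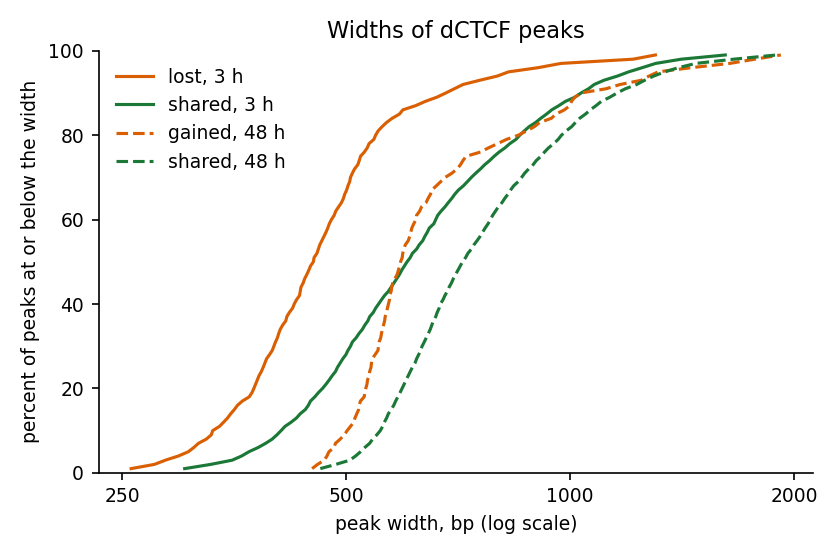
Percent of dCTCF arm peaks at or below each width (log scale, bp) for lost and shared peaks of the 3 h list and for gained and shared peaks of the 48 h list. The curve of lost peaks lies furthest to the left with a median of 452 bp, and that of shared 48 h peaks furthest to the right with a median of 717 bp up to the upper tail, where gained and shared 48 h peaks meet.

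Losses were spread over the arms. The share lost was 19.0% (16.2 to 22.2) on 2L, 21.3% (18.7 to 24.1) on X, 22.4% (19.9 to 25.2) on 3R, 23.5% (20.6 to 26.6) on 2R and 26.6% (23.7 to 29.7) on 3L. On chromosome 4, which is small, 1 of 26 peaks was lost and 5 of 30 were gained. On the 5 large arms gains made up between 7.73% and 9.15% of 48 h peaks. The intervals for losses on 2L and 3L did not overlap, whereas those of neighbours in this order did.

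Losses lay both singly and in groups. Of 1799 windows of 50 kb with a 3 h dCTCF peak, 500 held 1 lost peak, 133 held 2, 42 held 3, 6 held 4 and 1 held 5, so 421 of the 921 lost peaks (45.7%) shared a window with another lost peak. How many would do so by the spacing of dCTCF peaks alone was not tested. The fullest, 8650001 to 8700000 on 3L, had 7 dCTCF peaks at 3 h and 3 at both 0 and 48 h. Its 5 lost peaks scored between 105.56 and 248.42, and 2 of them had a 0 h peak. No CP190 peak was listed in it at any time, while over the 3 times Su(Hw) was listed with 13, 15 and 10 peaks and BEAF-32 with 3, 9 and 8. The next 2 windows were 21200001 to 21250000 on 3L and 2000001 to 2050000 on X, each with 4 of 5 peaks lost. Gains reached 3 per window in 5 windows, among them 13400001 to 13450000 on 3R, where 2 dCTCF peaks were listed at 0 h, 2 at 3 h and 6 at 48 h, and the 3 gained peaks overlapped no CP190 peak at 3 or 48 h.

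Among the sequences left out, gains outnumbered losses on U and Uextra and equalled them on the Het sequences. On U and Uextra dCTCF had 1205 peaks at 3 h and 1642 at 48 h, with 75 lost and 449 gained, and 93.3% of the 3 h peaks were shared. On the Het sequences it had 62 peaks at each time, with 13 lost and 13 gained. Their part in the arm losses was not tested. Over all sequences the list thus had 1009 losses and 756 gains.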

How the data were processed

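Each ChIP library had 1 deposited peak list without a header, giving sequence, start, end, peak name and score. The score is the authors' value, deposited without a definition. The submitters' processing notes name Bowtie 0.12.5 as the aligner, and peak names begin with MACS, per the files themselves. The peak caller's settings, its control and the build of the genome are not stated in what was used here. Sequences are named as in Release 5. Starts were read as BED starts and are printed counted from 1, with 1 added to the deposited start. The gene table at hand is of Release 6, so gene names, peak sequences and motifs were not used here, and the inputs were not analysed here.

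Overlaps, shares with Wilson intervals, ranks and widths were computed with Python 3.11.15, numpy 2.4.6, pandas 2.3.3 and scipy 1.17.1, with figures in matplotlib 3.10.9. The overlap code was tested on simulated data. Where several peaks of a list overlapped a site, the highest-scoring was used. The peaks named were the 10 highest-scoring lost and gained ones, the 5 highest-scoring lost ones in each CP190 class, the 5 largest falls and rises in rank, and the 3 fullest windows of each kind. Members, lists and rules were chosen with earlier results of these data known. Alternatives are given in the closing section.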

Additional observations from a re-analysis of the deposited data

Results flagged for a closer look

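Between 3 and 48 h, dCTCF and another protein moved in opposite directions in 4 summary measures. With 1 library each, none of these differences was tested. The number of arm peaks changed by -752 for dCTCF, -587 for CP190, -163 for Su(Hw) and 14 for BEAF-32. Peaks on unplaced sequence changed by 437 for dCTCF, -4 for CP190, -1 for Su(Hw) and -296 for BEAF-32. Arm peaks at the score ceiling changed by 118 for dCTCF, -276 for CP190, -57 for Su(Hw) and -40 for BEAF-32. The median width of arm peaks changed by 152 bp for dCTCF, -52 bp for CP190, 28.5 bp for Su(Hw) and 31 bp for BEAF-32.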

How the results depend on the processing

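Of 37 alternative values, 22 stayed within the interval or within 1.5 times the count of the reported value and 15 did not. The share of 3 h arm peaks shared was 70.9% with centres within 250 bp, 79.0% over all sequences, 84.9% with arm lists of equal length and 98.8% for the top 50% of the 3 h list. At equal length 450 peaks were lost and 483 gained, and over all sequences 756 were gained. The construction of these settings sets the shifts: they count fewer or other peaks, or ask for a closer match. CP190 was kept at 53.4% of lost and 57.1% of shared peaks where it scored under 400, at 98.1% and 98.9% where it scored more, and at 93.7% of shared peaks over all sequences. The rank correlation was 0.75 below the ceiling and 0.85 over all sequences, where the median width ratio was 1.18. The settings with peaks of 500 bp, without wide 48 h peaks and with CP190 split by score were chosen after seeing the data. No paired analysis was possible because each protein and time had 1 library. Read depth is unknown, so losses of weak peaks and a less sensitive 48 h library cannot be told apart.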
